A study of Mus musculus with 8 samples.

Results

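Type I interferon-stimulated genes were followed in the CD45+ cells of mouse mammary tumors, one gene at a time and as a summed score per mouse. The genes were a list of 41 symbols, of which 39 had a row among the genes counted. Mx1 and Mx2 were not analysed here. All 39 passed the filter on low counts in every comparison, so no member was lost on the way. The tumors grew from E0771, a carcinoma line of the mouse mammary gland, or from one of its resistant derivatives, E0771-Res1 and E0771-Res2, which the authors took from E0771 tumors that had come back after paclitaxel with an antibody to PD-1. Cells of parental E0771 (2 mice), E0771-Res1 (3 mice) or E0771-Res2 (3 mice) were grown in the mammary fat pad, with no treatment named in the labels for these mice, and CD45+ leukocytes were sorted on day 18. The age of the mice is not given in the labels, each resistant line is a single line, and a further parental mouse that the study describes was not analysed here. All comparisons with parental tumors share the same 2 parental mice.

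Cells respond to interferon-α and interferon-β through a receptor made of Ifnar1 and Ifnar2. The receptor activates a complex with Stat2 and Irf9, which binds the interferon-stimulated response element (ISRE) in front of its target genes. The targets make proteins that bind viral RNA, cut it or block its translation, and others, such as the transcription factor Irf7, that keep the response going. Interferon-γ, the type II interferon of T and NK cells, uses another receptor and acts through the γ-activated sequence (GAS), and many genes answer to both.

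The response element can be read in front of several members. Promoter sequences of RefSeq (GRCm38.p6) were found for 31 of the 39 members, and the 250 bases before each start were searched on both strands for GAAANNGAAA, where N is any base. The letters occurred before 13 of the 31 members (41.9%) and before 936 of the 27025 genes with a promoter sequence (3.46%). They were not particular to the members. They also lay before 21 of 50 further interferon-stimulated genes (42%) and before 10 of 15 genes associated with interferon-γ (66.7%), lists that are used below. At least 2 matches, which may overlap, lay before 7 members. The GAS letters TTCNNNGAA occurred before 5 members (16.1%) and before 8.13% of all genes. In the same 2 lists they lay before 2 genes (4%) and 7 genes (46.7%). A match describes letters only, and its absence from this window says nothing about Stat or Irf proteins. The 5 members of highest level with an ISRE match are printed here because they carry much of the score, 5′ to 3′ in the direction of the gene, each ending at the base before the start, with the matches in capitals:
Isg15, chr4:156200819-156201068, minus strand: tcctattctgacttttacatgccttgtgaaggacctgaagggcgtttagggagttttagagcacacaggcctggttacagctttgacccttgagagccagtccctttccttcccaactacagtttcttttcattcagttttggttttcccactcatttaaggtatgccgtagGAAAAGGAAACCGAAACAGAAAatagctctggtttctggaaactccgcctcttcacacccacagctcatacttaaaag
Bst2, chr8:71537473-71537722, minus strand: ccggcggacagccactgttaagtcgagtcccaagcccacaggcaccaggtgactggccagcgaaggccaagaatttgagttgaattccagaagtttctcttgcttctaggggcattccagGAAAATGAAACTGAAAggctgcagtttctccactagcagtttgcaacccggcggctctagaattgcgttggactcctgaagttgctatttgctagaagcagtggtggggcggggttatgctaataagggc
Rsad2, chr12:26456453-26456702, minus strand: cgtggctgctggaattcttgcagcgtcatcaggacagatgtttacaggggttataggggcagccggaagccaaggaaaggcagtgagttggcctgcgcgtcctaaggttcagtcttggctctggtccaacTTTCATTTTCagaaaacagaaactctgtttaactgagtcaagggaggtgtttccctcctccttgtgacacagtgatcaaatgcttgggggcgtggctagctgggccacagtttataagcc
Ifit3, chr19:34583279-34583528, plus strand: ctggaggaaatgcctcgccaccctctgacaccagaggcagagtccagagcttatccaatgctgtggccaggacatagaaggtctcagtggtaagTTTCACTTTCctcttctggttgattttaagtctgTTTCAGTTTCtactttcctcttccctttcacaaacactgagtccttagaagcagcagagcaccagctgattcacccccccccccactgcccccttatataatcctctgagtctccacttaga
Ifi205, chr1:174031756-174032005, minus strand: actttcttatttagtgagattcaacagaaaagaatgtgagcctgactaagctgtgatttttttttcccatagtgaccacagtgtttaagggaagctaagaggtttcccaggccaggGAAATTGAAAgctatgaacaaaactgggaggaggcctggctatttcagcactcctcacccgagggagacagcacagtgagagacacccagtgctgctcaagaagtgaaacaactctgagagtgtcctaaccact

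Isg15 held 3 overlapping matches, the nearest 66 bases before its start, and Bst2 and Ifit3 held 2 each. The 13 members with a match had a median log2 fold change between C1qa-high and Ly6c2-high cells of -1.54, and the 18 without one had a median of -1.08. Both sets covered nearly the same range, from -2.49 to -0.36 and from -2.72 to -0.27.

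All 39 members are protein-coding genes of GRCm38 (GENCODE M21), the assembly that the submitters' notes call mm10, and several lie in clusters. The 5 Ifit genes, whose proteins bind viral RNA ends, lie together on chromosome 19 between 34550694 and 34650009. The 6 genes of the 2′-5′-oligoadenylate synthetase (OAS) family lie on chromosome 5, Parp14, Dtx3l and Parp9 side by side on chromosome 16, and Rsad2 and Cmpk2 next to each other on chromosome 12. Ifit3 and Ifit3b, Oas1a and Oas1g, and Ifi204 and Ifi205 are close paralogs, between which counting can lose or divide reads, so their separate levels are uncertain.

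Of 11430 deposited cells, 10605 had 500 to 6000 detected genes and under 10% mitochondrial counts and were kept. The matrices held 5036667 to 18894504 unique molecular identifiers (UMIs) per mouse, and kept cells had a median of 5589 to 7001 UMIs in E0771-Res2 and 7631 to 8160 in the other mice. No cell barcode was shared between mice. Lymphoid cells carried at least 2 UMIs of Cd3d, Cd3e, Cd3g and Ncr1 together (1284 cells). Of the remaining myeloid cells, 3787 were Ly6c2-high and 1790 were C1qa-high, at 5 or more per 10000 UMIs of one gene and under 5 of the other. Another 1620 myeloid cells were high in both genes, 1415 in neither, and 709 cells fell in no class. Ly6c2 marks monocytes fresh from the blood and C1qa marks macrophages. The marker lists followed these names, but they include genes of the gates: Ly6c2 for monocytes, C1qa for macrophages, and Cd3d, Cd3e and Cd3g for T cells. Part of the separation below was therefore fixed by the gates, and sums without these genes are not given here. Monocyte markers stood at 71.2 to 104 per 10000 UMIs in Ly6c2-high and at 5.18 to 8.37 in C1qa-high cells, and macrophage markers at 16.8 to 20.6 and 165 to 234. T cell markers stood at 19.6 to 30.8 in lymphoid cells and at no more than 0.861 in either myeloid class, and tumor and stromal markers at no more than 0.242 in the 3 classes. Lymphoid cells also carried macrophage markers at 28.8 to 62.6 and monocyte markers at 20.9 to 31.2 per 10000 UMIs, so part of their UMIs is of myeloid kind.

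The summed score, the members' UMIs per 10000 UMIs, was highest in Ly6c2-high cells of every mouse. There the 2 parental mice scored 190 and 210, the E0771-Res1 mice 181, 176 and 182, and the E0771-Res2 mice 194, 178 and 199. C1qa-high cells of the parental mice scored 80.9 and 106, those of E0771-Res1 mice 86.0, 72.4 and 86.6, and those of E0771-Res2 mice 90.1, 88.2 and 104. Within each mouse the score of C1qa-high cells was 0.411 to 0.524 times that of Ly6c2-high cells. Lymphoid cells lay between 88.3 and 104, a range that overlaps that of C1qa-high cells, and the order of these 2 classes changed from mouse to mouse. That order depended on the gates. With at least 4 lymphoid UMIs and under 2 of Csf1r and Cd68, and 10 per 10000 UMIs for the myeloid gates, lymphoid cells scored 51.9 to 68.9 and C1qa-high cells 79.0 to 126, and lymphoid cells were the lower in all 8 mice. The limit of 10 also admits cells of higher Ly6c2 to the C1qa-high class, which held more cells and scored higher in all 8 mice. Myeloid cells high in both genes spanned 116 to 189 and those high in neither 79.8 to 116. In all 8 mice cells high in both scored above C1qa-high and below Ly6c2-high cells, as 151 beside 80.9 and 190 in parental replicate 1. Cells high in neither lay closer to C1qa-high than to Ly6c2-high cells. The score is a description, with no test, since the members were chosen with results of these data known.

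**Figure D1:**
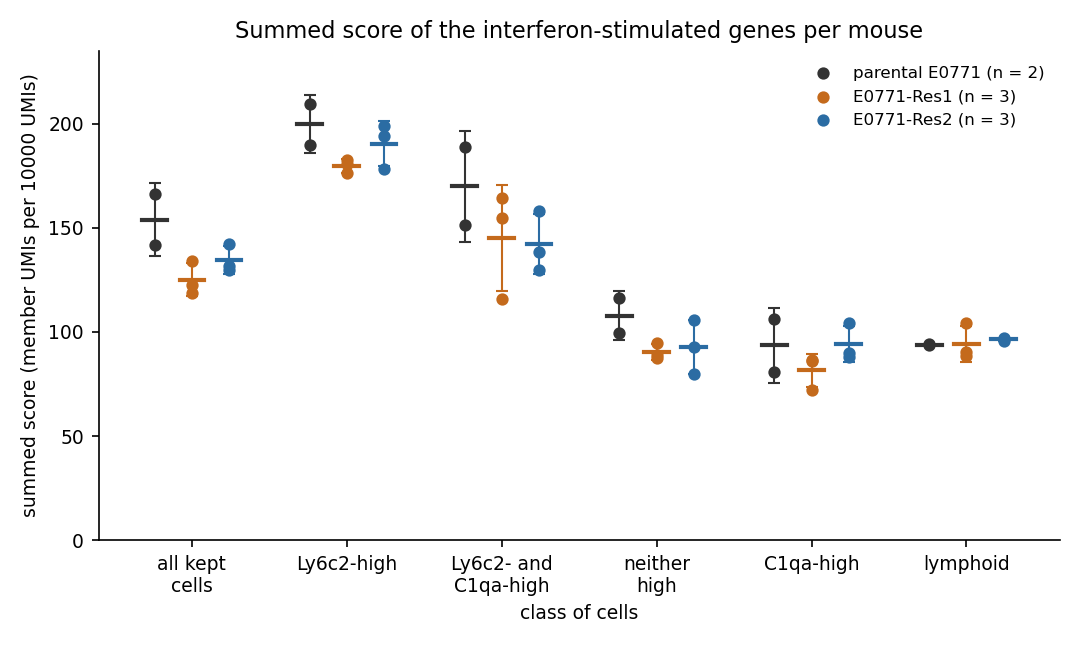
Summed score of the 39 members (UMIs per 10000 UMIs, vertical axis) in all kept cells and 5 classes (horizontal axis), with 1 point per mouse, the mean as a bar and the SD as an error bar for parental, E0771-Res1 and E0771-Res2 tumors. Ly6c2-high cells lie between 176 and 210 in all 8 mice, and C1qa-high and lymphoid cells at or under 106.

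A few genes made up much of the score. Each UMI marks 1 captured transcript end, so levels, given as CPM (UMIs of the gene scaled to a common total of UMIs in the class), need no scaling by gene length. Isg15, a ubiquitin-like protein that is coupled to other proteins, supplied 19.2% of the score over all kept cells, the 5 highest members 50.9% and the 10 highest 66.6%. Bst2 (tetherin), a membrane protein that holds budding viruses on the cell, came next over all kept cells, followed by Irf7. In C1qa-high cells Bst2 led with 17.0% of the score. The mean level of single members over the 8 mice, over all kept cells, ran from 31.9 to 2613 CPM, and 29 of the 39 exceeded 100.

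The first comparison asked how the genes differ between the Ly6c2-high and the C1qa-high class of the same tumors. Myeloid cells high in both genes or in neither were not part of it. All 39 members were lower in C1qa-high than in Ly6c2-high cells at an adjusted p under 0.05 (edgeR quasi-likelihood test with mouse as a block), against 29.0% of all 8745 genes tested. Their median log2 fold change was -1.06, from -2.72 to -0.27, beside a median of 0.02 over all genes. In single mice, 35 to 39 of the 39 members were lower in C1qa-high cells, and 32 were lower in all 8 mice, against 11.9% of all genes tested. The ranges of the 8 mice did not overlap for 30, all lower in C1qa-high cells, against 5.72% of all genes that were lower without overlap. The gates were cut on Ly6c2 and C1qa, which are not members, but Ly6c2 is itself known to respond to interferons, and its part in the difference was not tested. With 10 in place of 5 per 10000 UMIs as the limit of both gates, 39 members were again lower. The share of all genes called with that limit is not given here. That limit cuts on the same genes, and Ly6c2-high and C1qa-high cells both scored higher with it in all 8 mice. It raised the number of C1qa-high cells in every mouse, so it was not stricter for that class.

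Isg20, an exonuclease that degrades viral RNA, differed most. Its level in Ly6c2-high cells stood at 483 and 516 CPM in parental mice, at 464, 456 and 473 with E0771-Res1 tumors, and at 437, 376 and 432 with E0771-Res2 tumors. In C1qa-high cells it was 59.8 and 53.9, 87.1, 73.2 and 77.3, and 84.6, 84.4 and 90.2, in the same order. The lowest Ly6c2-high mouse lay far above the highest C1qa-high mouse, and the difference was 6.58-fold (log2 fold change -2.72, SE 0.09, adjusted p = 1.23e-15). Isg15 stood at 3852 to 4472 CPM in Ly6c2-high and 964 to 1370 in C1qa-high cells, a 4.03-fold difference (log2 fold change -2.01, SE 0.05, adjusted p = 1.27e-16). Ifit1bl1 (log2 fold change -2.49, SE 0.13), the DNA-binding protein gene Ifi205 (-2.05, SE 0.07) and Rsad2 (viperin, which blocks viral replication; -1.85, SE 0.06) were the other members of largest change.

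The size of the difference varied between the roles of the genes. The 5 Ifit genes had a median log2 fold change of -1.65, with the smallest at -1.54, and Isg15, its protease Usp18 and the ligase Herc6 had a median of -1.35. Of the 6 antiviral effectors, Bst2 changed least at -0.36 and Isg20 most. The 6 genes of the OAS family lay close together between -1.06 and -0.62. The RNA and DNA sensors Ddx58 (RIG-I), Ifih1 (MDA5), Dhx58 and Zbp1 lay between -1.48 and -0.56. Of the 3 transcription factors, Irf9 had -0.27 (SE 0.08), Stat2 -0.69 and Irf7 -1.18 (SE 0.07). Bst2 and Irf9 overlapped between the classes, with Bst2 at 1489 to 1972 CPM in Ly6c2-high and 1241 to 1977 in C1qa-high cells.

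**Figure D2:**
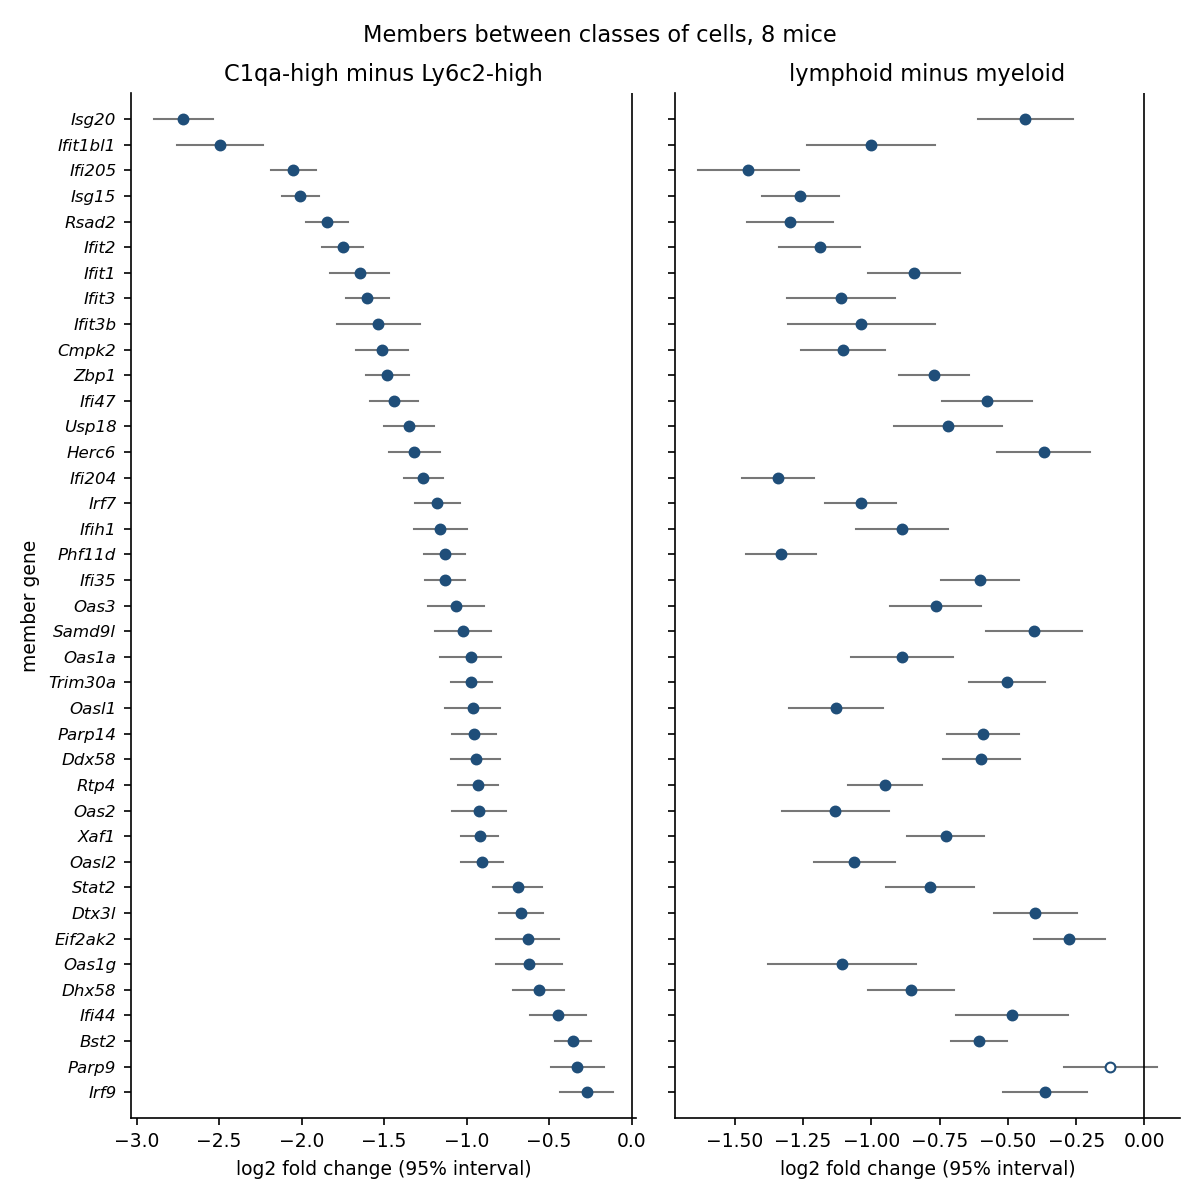
Log2 fold change of each member (points, with 95% intervals as lines) in C1qa-high against Ly6c2-high cells on the left and in lymphoid against myeloid cells on the right, over 8 mice, with members sorted by the left panel. Filled points had an adjusted p under 0.05: 39 on the left and 38 on the right, where the open point is Parp9.

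Lymphoid cells were compared with the 2 myeloid classes summed. In lymphoid cells 38 of 39 members were lower, against 31.9% of all 9306 genes, with a median log2 fold change of -0.84 and a range of -1.45 to -0.12. The exception was Parp9, a partner of the ligase Dtx3l, with -0.12 (95% interval -0.29 to 0.05, adjusted p = 0.192). Isg20, the member of largest change in C1qa-high cells, had -0.44 here, with 248 to 327 CPM in lymphoid cells. The largest changes were in Ifi205 (-1.45, SE 0.09), Ifi204 (-1.34, SE 0.06), Phf11d (-1.33, SE 0.06), Rsad2 (-1.30, SE 0.08) and Isg15 (-1.26, SE 0.07). Ifi204 and Ifi205 belong to the HIN-200 family of DNA-binding proteins. With these gates, Isg15 stood at 1372 to 1736 CPM in lymphoid cells, above its 964 to 1370 in C1qa-high cells in all 8 mice. Set against C1qa-high cells alone, lymphoid cells were lower for 11 to 14 of the 39 members in 6 mice, and for 27 and 23 in parental replicate 3 and E0771-Res2 replicate 3. These orders of single members were not examined with the stricter lymphoid gate and the limit of 10 per 10000 UMIs. With those, lymphoid cells scored below C1qa-high cells in all 8 mice. With the stricter lymphoid gate, which takes fewer Csf1r and Cd68 UMIs, 38 members were lower than in the summed myeloid classes too. The share of all genes called with that gate is not given here. The lymphoid score was then the 51.9 to 68.9 given above in place of 88.3 to 104.

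Within a class the cells differed widely. After thinning each cell to 2500 UMIs, which left out 1696 of 10605 cells with fewer, the median cell carried 30 to 44 member UMIs in the Ly6c2-high class, 10 to 22 in the C1qa-high and 12 to 20 in the lymphoid class, by mouse. Without thinning these medians were 62 to 110, 33 to 52 and 33.5 to 55. The 10% of cells with most carried 24.6% to 30.6% of all member UMIs in Ly6c2-high cells and 25.4% to 42.3% in C1qa-high cells. To see whether members rise in the same cells, cells were ranked by every second member of the list and the other members were counted. In the top 10% of Ly6c2-high cells so ranked the other members were 2.93 to 4.09 times as frequent as in the rest, in C1qa-high cells 2.85 to 7.15 times, and in lymphoid cells 3.85 to 5.54 times. The upper ends in C1qa-high cells, 42.3% and 7.15 times, both came from E0771-Res1 replicate 2, with 66 thinned cells. The highest values among the other mice were 33.7% and 4.85 times. Close paralogs that are neighbors in the list, such as Ifit3 and Ifit3b, fell on opposite sides of this split. Lymphoid cells also carried UMIs of myeloid kind. The part of either in the ratios was not tested, and no other set of genes was ranked in this way. Cells with no member UMI at this depth made up at most 0.733% of a class in any mouse.

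**Figure D3:**
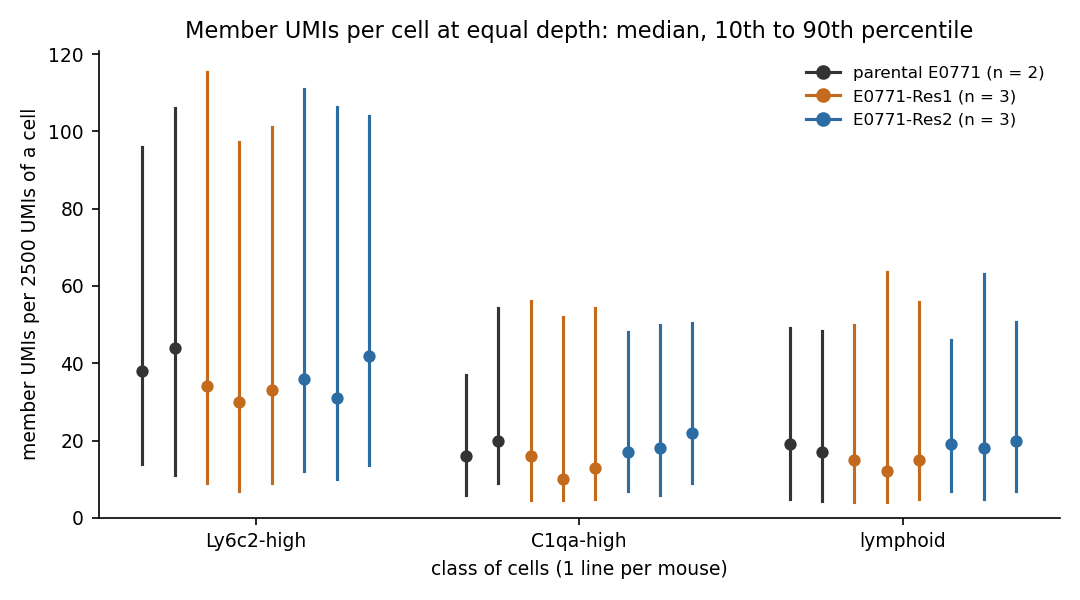
Member UMIs per cell after thinning to 2500 UMIs (vertical axis), with the median of each mouse as a point and the 10th to 90th percentile of its cells as a line, in Ly6c2-high, C1qa-high and lymphoid cells. Medians are 30 to 44 in Ly6c2-high cells and at most 22 in the other classes, and the percentile ranges of the classes overlap.

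One question of the study was how the resistant lines differ from parental tumors. Over all kept cells the parental mice scored 142 and 166, a mean of 154 ± 17.5 (SD, n = 2). E0771-Res1 mice scored 119, 123 and 134, with a mean of 125 ± 7.89 (SD, n = 3). E0771-Res2 mice scored 132, 130.0 and 142, with a mean of 135 ± 6.72 (SD, n = 3). All 3 E0771-Res1 mice lay below both parental mice, and the highest E0771-Res2 mouse overlapped the lower parental mouse. The share of Ly6c2-high cells, the class with the highest score, moved the same way. Parental mice had 45.2% ± 1.35 (SD, n = 2) of their kept cells in it, E0771-Res1 mice 35.1% ± 5.59 (SD, n = 3), and E0771-Res2 mice 34.8% ± 1.83 (SD, n = 3). In sums over all cells, fewer cells of a class and less RNA per cell cannot be told apart. Within Ly6c2-high cells the mean score was 199.7 ± 13.9 (SD, n = 2) for parental, 179.8 ± 3.25 (SD, n = 3) for E0771-Res1 and 190.3 ± 10.8 (SD, n = 3) for E0771-Res2 mice, and within lymphoid cells it was 94.0, 94.4 and 96.4.

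In E0771-Res1 against parental tumors, over all kept cells, 39 of 39 members had a negative fold change, with a median of -0.32 beside about 0 over all genes, but edgeR called 0 of them. Few genes of any kind passed (0.0354% of 11313). An unadjusted p under 0.05 was found for 29 members, beside 1188 of all 11313 genes. DESeq2 called 4 members, beside 38 genes higher and 31 lower of all 11313. Those 4 were Ifi47, Parp14, Dtx3l and Eif2ak2. Without E0771-Res1 replicate 3, edgeR called 2 members, and the share of all genes called in that fit is not given here. Over all alternatives run, 34 to 39 members had a negative fold change. Isg15 had a log2 fold change of -0.30 (SE 0.11, adjusted p = 0.378), Irf7 -0.38 (SE 0.11, adjusted p = 0.258) and Bst2 -0.01 (SE 0.09). Within classes the medians were nearer to 0. In Ly6c2-high cells, where edgeR called 0 of 9493 genes (0.00%), the members' median was -0.19. There DESeq2 called 1 member (all genes 9 higher and 4 lower). There 12 members had an unadjusted p under 0.05, beside 687 of all 9493 genes. In C1qa-high cells 0 of 39 were called (background 0.274%), with 6 at an unadjusted p under 0.05 (all genes 844 of 8386), 0 by DESeq2 and a median of -0.19. In lymphoid cells 0 of 39 were called (background 0.0433%), with 1 at an unadjusted p under 0.05 (all genes 482 of 9235), 0 by DESeq2 and a median of 0.01.

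In E0771-Res2 against parental tumors, 5 members were lower over all kept cells, against 2.24% of all genes that were lower, and the median of the 39 was -0.27 beside 0.01 over all genes. They were Ifi47 (log2 fold change -0.88, SE 0.13, adjusted p = 0.00406), Eif2ak2 (-0.62, SE 0.09, adjusted p = 0.00352), Ifih1 (-0.47, SE 0.10, adjusted p = 0.0247), Isg20 (-0.45, SE 0.11, adjusted p = 0.0353) and Parp9 (-0.36, SE 0.09, adjusted p = 0.0353). DESeq2 called 8. Without parental replicate 3, whose score was the highest of all, edgeR called 0, without parental replicate 1 it called 3, and without E0771-Res2 replicate 1 or 3 it called 2 each. Without E0771-Res1 replicate 1 or 3, which only enter the spread, it called 9 and 8. The shares of all genes called with a mouse left out are not given here.

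By role, the values of the 2 lines differed in order. Over all kept cells the median log2 fold change of the 5 Ifit genes was -0.32 in E0771-Res1 and -0.14 in E0771-Res2, that of the 6 OAS genes -0.26 and -0.17, and that of the 3 transcription factors -0.38 and -0.10. The 4 nucleic acid sensors had -0.31 and -0.32, the 2 HIN-200 genes -0.35 and -0.41, and Parp9, Parp14 and Dtx3l, which act in ADP-ribosylation and its signaling, -0.44 and -0.36. The members of highest level were not called in E0771-Res2 either. Isg15 had -0.26 (SE 0.11, adjusted p = 0.225), Irf7 -0.07 (SE 0.11, adjusted p = 0.790), and Bst2, on the other side of 0, 0.30 (SE 0.09, adjusted p = 0.0870). Every E0771-Res1 mouse lay below both parental mice for 26 members over all kept cells, against 13.9% of all genes tested, and above both for 0, against 11.4%. Every E0771-Res2 mouse lay below for 23, against 20.0%, and above for 1, against 22.1%. In Ly6c2-high cells 22 members lay below and 0 above with E0771-Res1 tumors (all genes 12.8% and 10.6%), and 18 below and 1 above with E0771-Res2 tumors (18.1% and 18.9%). In C1qa-high cells the shares were near those of all genes, with 6 members below and 1 above for E0771-Res1 (15.4% and 2.56% of the members, 14.5% and 11.7% of all genes) and 7 below and 4 above for E0771-Res2 (17.9% and 10.3%, against 17.8% and 16.6%). In lymphoid cells 3 lay below and 2 above for E0771-Res1 (7.69% and 5.13%, against 13.2% and 8.90%), and 6 below and 4 above for E0771-Res2 (15.4% and 10.3%, against 18.6% and 11.7%). All these counts share the 2 parental mice.

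Ifi47, a guanosine triphosphatase of the immunity-related family that answers to both types of interferon, was the called member of largest change in E0771-Res2. Over all kept cells, the parental mice had 253 and 337 CPM, E0771-Res1 mice 178, 189 and 223, and E0771-Res2 mice 161, 171 and 151, so no resistant tumor reached a parental one. In Ly6c2-high cells it stood at 323 and 451, at 271, 285 and 305, and at 248, 240 and 227 in the same order. In C1qa-high cells the levels were 173 and 204, then 124, 94.2 and 134, then 94.9, 86.9 and 99.9. No resistant tumor reached a parental one in either class. Ifi47 was called lower in E0771-Res2 in Ly6c2-high cells (log2 fold change -0.69, SE 0.12, adjusted p = 0.00561) and in C1qa-high cells (-0.95, SE 0.15, adjusted p = 0.00771).

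In Ly6c2-high cells 3 members were lower in E0771-Res2 (background 2.37%), Ifi47, Eif2ak2 (-0.46, SE 0.10, adjusted p = 0.0187) and Ifih1 (-0.39, SE 0.09, adjusted p = 0.0234). Eif2ak2 (PKR), a kinase that stops translation on sensing double-stranded RNA, stood at 127 and 131 CPM in parental mice, at 92.8, 91.2 and 81.0 with E0771-Res1 tumors, and at 96.5, 96.8 and 88.5 with E0771-Res2 tumors. Both resistant lines lay below both parental mice. Ifih1, a sensor of long double-stranded RNA, stood at 272 and 264 CPM in parental mice, at 223, 217 and 233 with E0771-Res1 tumors, and at 212, 207 and 197 with E0771-Res2 tumors. Isg15 (-0.01, 95% interval -0.22 to 0.21) and Irf7 (0.00, 95% interval -0.23 to 0.23), the members with the highest levels, were not called. Without parental replicate 3 none of the 3 calls was made, and without parental replicate 1 or E0771-Res2 replicate 3 there was 1. Monocyte markers in this class were 97.2 to 104 per 10000 UMIs in parental and 71.2 to 81.4 in E0771-Res2 mice, and genes of dissociation stress 51.5 to 54.2 and 63.1 to 83.2. Their part in these differences was not tested.

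In C1qa-high cells Ifi47 was the 1 member called (background 0.489%), and the median of the 39 was -0.04. Without parental replicate 1, and likewise without parental replicate 3, the call was not made. In lymphoid cells Bst2 was higher in E0771-Res2 (background of genes that were higher, 0.747%). It stood there at 1089 and 1062 CPM in parental mice, at 1269, 1219 and 1159 with E0771-Res1 tumors, and at 1438, 1352 and 1509 with E0771-Res2 tumors (log2 fold change 0.46, SE 0.10, adjusted p = 0.0313). The call was not made without parental replicate 1, parental replicate 3, or E0771-Res2 replicate 1 or 3, or with the stricter lymphoid gate. With that gate the log2 fold change of Bst2 was 0.43 in place of 0.46. Macrophage markers in the lymphoid class were 28.8 to 41.5 per 10000 UMIs in parental and 48.1 to 62.6 in E0771-Res2 mice. Their sums with the stricter gate are not given here, and the part of UMIs of myeloid kind in the Bst2 value was not tested. Bst2 values in the other classes were 0.30 (SE 0.10, adjusted p = 0.0964) in Ly6c2-high and 0.52 (SE 0.13, adjusted p = 0.0768) in C1qa-high cells, where DESeq2 called it.

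**Figure D4:**
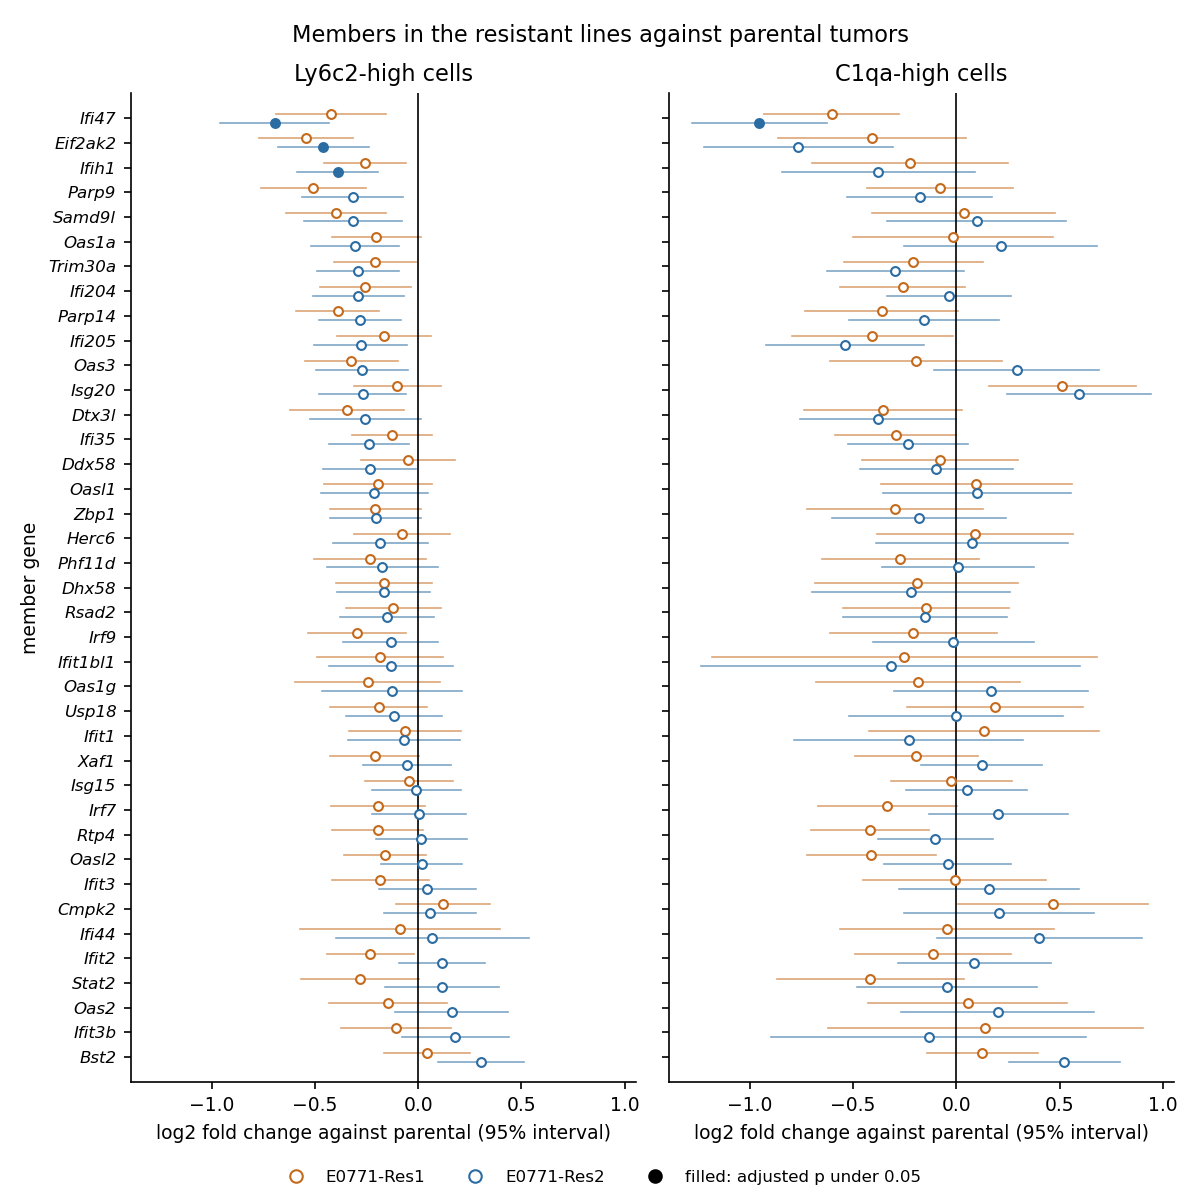
Log2 fold change of each member against parental tumors (points, with 95% intervals as lines) in Ly6c2-high cells on the left and C1qa-high cells on the right, for E0771-Res1 and E0771-Res2, sorted by E0771-Res2 in Ly6c2-high cells. The 4 filled points had an adjusted p under 0.05: Ifi47, Eif2ak2 and Ifih1 on the left and Ifi47 on the right, all for E0771-Res2.

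Whether the lines acted differently on the 2 myeloid classes was tested by an interaction term. For E0771-Res1, 0 of 39 members were called (background 0.162%), with 1 at an unadjusted p under 0.05 (all genes 734 of 9858) and 0 by DESeq2. For E0771-Res2, 0 were called (background 0.203%), with 3 at an unadjusted p under 0.05 (all genes 776 of 9858) and 0 by DESeq2. The member nearest to the threshold, named here after its values were seen, was Isg20. Its log2 fold change in E0771-Res2 against parental tumors was -0.27 (SE 0.10, adjusted p = 0.146) in Ly6c2-high and 0.60 (SE 0.16, adjusted p = 0.122) in C1qa-high cells. In the joint fit its effects differed by 0.81 on the log2 scale (95% interval 0.43 to 1.19, adjusted p = 0.0595). Its C1qa-high levels in both parental mice, 59.8 and 53.9 CPM, lay below those of all 6 resistant tumors.

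Few members were called between the 2 resistant lines. In E0771-Res2 against E0771-Res1, edgeR called 1 member in Ly6c2-high cells, Ifit2 (background of genes that were higher, 1.93%). Ifit2 stood at 588, 510.2 and 569.5 CPM with E0771-Res1 tumors, at 725, 664 and 742 with E0771-Res2 tumors, and at 622 and 688 in parental mice (log2 fold change 0.35, SE 0.09, adjusted p = 0.0447). The E0771-Res2 mice did not overlap those of E0771-Res1. The call was not made without parental replicate 1 or 3, without any single E0771-Res1 mouse or without E0771-Res2 replicate 3, and 2 members were called without E0771-Res2 replicate 2. No member was called by edgeR over all kept cells (background 4.20%, 9 at an unadjusted p under 0.05, 1 by DESeq2), in C1qa-high cells (2.66%, 9, and 2 by DESeq2) or in lymphoid cells (0.996%, 6, and 0 by DESeq2). Of all genes, 2241 of 11313, 1337 of 8386 and 1024 of 9235 had an unadjusted p under 0.05, in the same order. Irf7 in C1qa-high cells, at 763, 607 and 868 CPM with E0771-Res1 tumors and at 1066, 968 and 1249 with E0771-Res2 tumors, had a log2 fold change of 0.54 (SE 0.14, adjusted p = 0.0530).

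The ligands themselves were hardly seen. Ifnb1 (interferon-β) gave 83 UMIs in all, in 40 of 10605 cells (0.377%, exact 95% interval 0.270% to 0.513%, which covers counting error only), and 22 of them came from a single cell. The share was 0.343% in Ly6c2-high, 0.447% in C1qa-high and 0.156% in lymphoid cells, with overlapping intervals. In each class no more than 2 of the 21 ligand genes had enough counts to be tested. Of the 2 tested over all kept cells, Ifng had log2 fold changes against parental of -0.09 in E0771-Res1 and -0.49 in E0771-Res2. The other gene, not named here, had 3.49 and 2.64. With edgeR 0 of the 2 were called in either line, and 1 had an unadjusted p under 0.05 in each. Of all 11313 genes, 1188 and 2327 had an unadjusted p under 0.05, in the same order. Ifng gave 3033 UMIs, 2465 of them in lymphoid cells, where 39.0% of cells carried it against 3.33% of Ly6c2-high and 3.41% of C1qa-high cells. Median depths per mouse were 6962 to 10247 UMIs in lymphoid, 5633 to 8104 in Ly6c2-high and 5911 to 11652 in C1qa-high cells. The receptor genes were detected in every mouse. Ifnar1 stood at 114 to 127 CPM and Ifnar2 at 281 to 347 over all kept cells of the 8 mice, and neither was called between lines in any class tested.

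Other lists of the pathway gave the following counts in E0771-Res2 against parental tumors over all kept cells. Of all genes tested, 2.24% were lower and 2.11% higher. Of 58 further interferon-stimulated genes, 10 were lower and 1 higher, with a median of -0.26. The lowest was Ly6a (-0.76, adjusted p = 0.00216), the Sca-1 surface protein, followed by Slfn9 and Daxx, and the higher one was Lgals3bp (0.43, adjusted p = 0.0459). Of 18 receptor and signaling genes 5 were lower, among them the kinase Jak2 (-0.58, adjusted p = 0.0186), the phosphatase Ptpn2 and Stat3. Of 16 sensors and adaptors 3 were lower, Samhd1, Tmem173 (STING) and Myd88.

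A list associated with interferon-γ showed larger values than the type I members in E0771-Res2 against parental tumors. Of its 21 genes tested over all kept cells 11 were lower in E0771-Res2 than in parental tumors (all genes 2.24%), with a median of -0.67, and in Ly6c2-high cells 8 of 21 were lower (all genes 2.37%), with a median of -0.55. In C1qa-high cells 12 of 19 were lower (all genes 0.489%), with a median of -1.13, beside 1 of 39 and -0.04 for the type I members. In lymphoid cells edgeR called 0 of 19, with 0 by DESeq2 and a median of -0.28, and 0.206% of all genes were lower. Of the 19, 7 had an unadjusted p under 0.05, beside 1040 of all 9235 genes. For E0771-Res1 edgeR called 0 of 21 over all kept cells and in Ly6c2-high cells (all genes 0.0354% and 0.00%). The list's medians there were -0.39 and -0.26, beside -0.32 and -0.19 for the members. In C1qa-high cells of E0771-Res1, 1 of 19 was lower (all genes 0.155%), with a median of -0.61 beside -0.19. In its lymphoid cells 0 of 19 were called (all genes 0.0433%), with a median of 0.03. Markers of other cells also differed in the C1qa-high class. NK markers stood at 1.25 to 2.54 per 10000 UMIs in parental and 0.652 to 1.16 in E0771-Res2 mice, B cell markers at 0.946 to 1.28 and 0.469 to 0.633, and the leukocyte marker Ptprc at 6.86 to 7.19 and 5.37 to 6.17. Their part in the fall of the list was not tested. Cxcl9, a chemokine for T cells, stood in C1qa-high cells at 731 and 571 CPM in parental mice, at 383, 275 and 508 with E0771-Res1 tumors, and at 256, 156 and 185 with E0771-Res2 tumors (log2 fold change -1.69 for E0771-Res2, SE 0.22, adjusted p = 0.00233). The class II genes H2-Eb1 (-1.51) and Cd74 (-1.45) fell with it. From bulk RNA sequencing of tumors, the authors report lower interferon-α and interferon-γ pathways in the resistant E0771 lines. Those were other gene sets in other samples, and they were not compared with the lists used here. In the tumors followed here the authors report a shift from macrophages marked by class II genes toward Trem2+ C1q+ macrophages in the resistant lines. The part of such a shift within the C1qa-high class was not tested. Irf1, which both interferons induce, was lower in C1qa-high cells of E0771-Res1 (-0.94, adjusted p = 0.0331) and of E0771-Res2 (-1.18, adjusted p = 0.00427). Cxcl10, a chemokine induced by either interferon, was not called in E0771-Res2 (-0.50, adjusted p = 0.216). Whether the 2 lists differ was not tested.

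**Figure D5:**
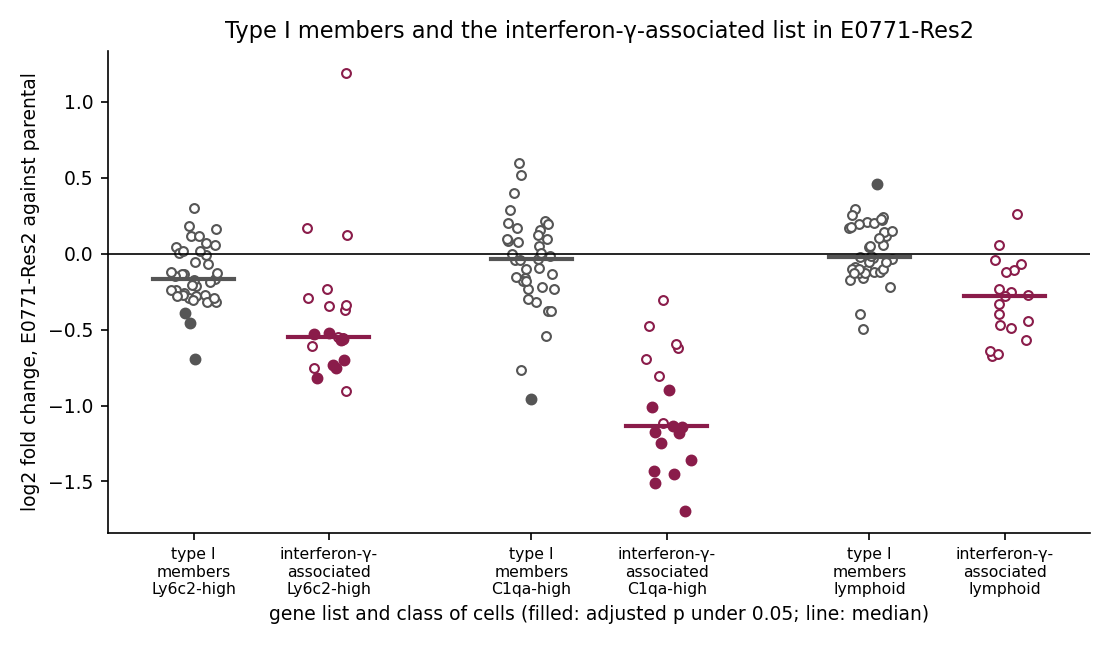
Log2 fold change in E0771-Res2 against parental tumors (vertical axis) of the 39 type I members and of the interferon-γ-associated genes tested, in Ly6c2-high, C1qa-high and lymphoid cells, with 1 point per gene, the median as a line and filled points at an adjusted p under 0.05. In C1qa-high cells the medians are -0.04 and -1.13.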

How the data were processed

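CD45+ cells were labeled with multiplexing oligonucleotides and made into 3′ droplet libraries. Cell Ranger 6.1.2, per the file headers, was used by the authors against mm10, per the submitters' notes, and the deposited files hold raw UMI counts of each gene in each cell, not normalized. Cells were filtered as in the study's methods. Totals for the score and CPM, the thinning and the tests left out mitochondrial (mt-) genes and those named Rpl, Rps and Gm. The gates, marker sums and depths kept these genes in their totals. Scrublet called 0.283% of kept cells, which was taken as a failed call, so doublets were kept. Counts were summed per mouse and class (at least 10 cells) and tested with edgeR 4.0.16 (TMM, filterByExpr, quasi-likelihood test, Benjamini-Hochberg over all genes tested), in 1 fit over 8 mice for lines and with mouse as a block for classes. DESeq2 1.42.0, other filters, gates and cells, a replicate block and leaving out each mouse were alternatives. The edgeR step was run on simulated data with a fixed spread and with changes larger than those of members between lines. That run cannot show how many changes of the members' size are missed. Replicates differed by more than sampling noise (chi-square per degree of freedom 2.66 to 12.5), and p-values measure the spread between these mice.

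Members, lists and gates were chosen with earlier results of these data known. Named members are, per comparison, the 5 called members of largest absolute log2 fold change whose average log2 CPM reached 4, and the 3 members of highest level, and in the other lists the 3 called genes of largest change, with Ifnb1, Ifng, Ifnar1, Ifnar2, Irf1 and Cxcl10. A further gene of that rule is not reported here. Members given beside a group or a count were added after their values were seen.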

Additional observations from a re-analysis of the deposited data

How the results depend on the processing

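The 39 members lower in C1qa-high than in Ly6c2-high cells were 39 in all 16 alternatives, and the 38 lower in lymphoid cells were 38, or 37 with no replicate block. Over all genes, deviations from the mean of each line correlated at -0.06 to 0.09 in the 7 same-numbered pairs. These pairs are not independent, because the 2 parental deviations mirror each other. The check therefore cannot show whether samples were handled by replicate number. A replicate block moved 1 count by over 1.5 times, to 2 members for E0771-Res2 against E0771-Res1 in C1qa-high cells. Counts of members called between lines are small and depend on the processing. For E0771-Res2 against parental over all kept cells the 5 became 8 with DESeq2 and 15 with no filter on low counts, and for E0771-Res1 the 0 became 4 and 12, while the share of all genes called in either direction went from 4.35% to 4.80% and 5.91% for E0771-Res2, and from 0.0354% to 0.610% and 1.47% for E0771-Res1. Of all genes, DESeq2 called 9 higher and 4 lower of 9493 for E0771-Res1 in Ly6c2-high cells, and 45 and 48 of 8386 for E0771-Res2 in C1qa-high cells. For E0771-Res2 against E0771-Res1 it called 259 and 245 of 11313 (all kept) and 72 and 95 of 8386 (C1qa-high). With DESeq2, counts of members in these comparisons became 1, 2, 1 and 2, in the same order. With no filter they became 4 and 1 for E0771-Res1 in Ly6c2-high and C1qa-high cells, 4 for E0771-Res2 in C1qa-high cells, 4, 2 and 3 for E0771-Res2 against E0771-Res1 in all kept, Ly6c2-high and C1qa-high cells, and 1 for the interaction of E0771-Res2, which was also 1 with all deposited cells and with mt-, Rpl, Rps and Gm genes kept. The last setting gave 1 for E0771-Res2 against E0771-Res1 over all kept cells. A limit of 10 per 10000 UMIs for the myeloid gates put more cells in the C1qa-high class of every mouse, so it was not stricter there. With it the count was 2 for E0771-Res2 in C1qa-high cells. The stricter lymphoid gate gave 0 for E0771-Res2 in lymphoid cells. The limit of 10 gave 0 for E0771-Res2 against E0771-Res1 in Ly6c2-high cells. Without the highest doublet scores the last was 0 too, that over all kept cells 1, and the score difference of E0771-Res1 in lymphoid cells 7.92 in place of 0.44. Apart from the values above, the shares of all genes called under these settings are not given here. The cause of these moves was not tested.

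Leaving out 1 mouse at a time gave 0 to 9 members for E0771-Res2 against parental over all kept cells, 0 to 4 in Ly6c2-high, 0 to 3 in C1qa-high (2 or 3 without an E0771-Res1 mouse) and 0 to 1 in lymphoid cells, 0 to 2 for E0771-Res1 over all kept and in C1qa-high cells (2 without E0771-Res1 replicate 3), 0 to 2 for E0771-Res2 against E0771-Res1 over all kept (2 without E0771-Res2 replicate 2), Ly6c2-high and C1qa-high cells (2 without E0771-Res1 replicate 3), and 0 to 1 for the interaction of E0771-Res2 (1 without E0771-Res1 replicate 1 or 3). The score difference from parental moved between -41.2 and -16.5 for E0771-Res1 and -31.7 and -6.96 for E0771-Res2 over all kept cells, between -29.8 and -10.2 and between -19.2 and 0.38 in Ly6c2-high cells, and between -24.8 and 0.76 and between -12.2 and 13.3 in C1qa-high cells. With 1 parental mouse left, it is assumed to vary like the other groups. The counts of members with a mouse left out are given without the shares of all genes called in the same fits. Parental values rest on 2 mice, the E0771-Res2 cells are shallower, and the C1qa-high class of parental replicate 3 held 60 cells.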

Other observations

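Among genes outside the list, Slfn4, a member of the Schlafen family expressed in myeloid cells, was higher in E0771-Res2 than in E0771-Res1 over all kept cells (log2 fold change 0.62, adjusted p = 0.0116, edgeR). It was also higher in the 3 classes tested, with 0.53, 0.65 and 0.68 in Ly6c2-high, C1qa-high and lymphoid cells (adjusted p = 0.00786, 0.0309 and 0.0205, edgeR). Lymphoid cells carried UMIs of myeloid kind, and their part in the lymphoid value was not tested. Lgals3bp, a secreted glycoprotein induced by interferons, was higher in E0771-Res2 than in E0771-Res1 over all kept cells (0.49, adjusted p = 0.0164), in Ly6c2-high (0.50, adjusted p = 0.0150) and in C1qa-high cells (0.47, adjusted p = 0.0150). Socs3, an inhibitor of cytokine receptors, was lower in E0771-Res2 than in E0771-Res1 in Ly6c2-high (-0.71, adjusted p = 0.000382) and C1qa-high cells (-0.75, adjusted p = 0.0151). Of the further interferon-stimulated genes, 3 of 58 were higher and 0 lower over all kept cells (all genes 2.49% and 1.71%). In C1qa-high cells 2 of 56 were higher and 1 lower (1.32% and 1.34%). Of the interferon-γ-associated genes, 5 of 21 were lower and 0 higher over all kept cells, with a median of -0.24. In C1qa-high cells 8 of 19 were lower and 0 higher, with a median of -0.46.

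Between classes, 50 of 57 further interferon-stimulated genes were lower in C1qa-high than in Ly6c2-high cells, with a median log2 fold change of -1.01, and 0 were higher, against 29.0% of all genes lower and 27.8% higher. Of 16 sensors and adaptors 7 were lower, led by Samhd1 (-1.41), and 4 higher, led by Mavs (0.88). Of 19 interferon-γ-associated genes 13 were lower, led by Gbp2 (-1.66), and Iigp1 was higher (0.67). Ifng itself was lower in C1qa-high cells of E0771-Res2 than of parental mice with edgeR (-2.73, adjusted p = 0.00781), but DESeq2 did not call it. Ifng gave 107 UMIs in the class over 8 mice, of which 27 lay in 1 cell of parental replicate 1. It stood at 36.3 and 16.4 CPM in parental and 4.39, 5.85 and 3.24 in E0771-Res2 mice, and without that cell's 27 UMIs parental replicate 1 stood at 9.81. NK markers in the class stood at 1.25 to 2.54 and 0.652 to 1.16 per 10000 UMIs. Their part was not tested.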
